A study of Homo sapiens with 12 samples.

Results

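The genes described here are 40 genes of the ATF4 response and of amino acid supply: regulators and stress-induced genes of the pathway, enzymes that make serine, glycine, one-carbon units, asparagine, proline and cysteine, amino acid transporters of the cell surface, and cytosolic aminoacyl-tRNA synthetases. They were taken by symbol from a list that was drawn up with earlier results of these data known, and all 40 were found among the 26334 gene symbols of the deposited table. RNA was sequenced from HK-2 cells, a human renal proximal tubular epithelial line, that carried a doxycycline (Dox)-inducible PRCC-TFE3 gene, a fusion of PRCC with the transcription factor gene TFE3 that occurs in translocation renal cell carcinoma. All 4 groups shared this construct, the medium and its selection antibiotics, and were kept for 48 h. They received Dox plus the CDK8/19 inhibitor MSC2530818 at 100 nM, Dox alone, the inhibitor alone at 100 nM, or DMSO vehicle, with 3 libraries per group that the labels call independent biological replicates. Because Dox was never given to cells that lacked the fusion gene, an effect of Dox itself and an effect of the fusion cannot be told apart, and the labels do not say whether the line is 1 clone.

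ATF4 is a basic leucine zipper transcription factor whose mRNA is translated more efficiently when the initiation factor eIF2 is phosphorylated by one of the kinases that sense amino acid shortage, unfolded protein, haem shortage or double-stranded RNA. The factor then raises transcription of genes that import amino acids, make non-essential ones and charge them onto tRNA, usually through a short DNA element bound together with a C/EBP-family partner. Its own mRNA level is therefore only an indirect readout, and protein was not measured in these data. The inhibited enzymes, CDK8 and CDK19, are cyclin-dependent kinases that associate with Mediator, a coactivator of RNA polymerase II.

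FPKM is the number of fragments scaled by transcript length and library size, and all changes are differences in log2(FPKM + 1), which understate the change of genes with a low FPKM. A gene was tested when it reached 1 FPKM in at least 3 of 12 libraries, which held for 12649 genes and for 39 of the 40 genes described here. SLC6A9, a glycine transporter, was not tested and stood between 0.25 and 0.80 FPKM in all libraries. The read depth of the libraries is unknown, and their FPKM sums ran from 429208 to 473950. TFE3 rose on the log2 scale by 2.04 ± 0.07 with Dox against vehicle and by 1.57 ± 0.07 with Dox plus inhibitor against inhibitor (adjusted p = 1.4e-08 and 3.4e-07, limma), although with the inhibitor its level under Dox was lower (84.2 ± 3.05 FPKM with Dox plus inhibitor, 149.7 ± 4.0 FPKM with Dox; SD, n = 3 each). The rise with the inhibitor minus the rise without it was -0.47 ± 0.10 (adjusted p = 0.023, limma), a call that ended in 7 alternative fits (-0.49 to -0.45). Of 15 proximal tubule and epithelial markers, 8 stayed below 1 FPKM in every library, among them LRP2, CUBN and HNF4A, while PAX8, GGT1, KRT8, KRT18, CDH2 and VIM were expressed and tested. Of these 6, 1 was higher and 4 lower with Dox against vehicle, 3 were lower with Dox plus inhibitor against inhibitor, 3 were higher with inhibitor against vehicle, and 4 were higher and 1 lower with Dox plus inhibitor against Dox (4 lower, 4 lower, 4 higher and 4 higher with median-ratio scaling). Of all tested genes 10.6%, 12.2%, 11.7% and 11.3% were higher and 7.31%, 6.06%, 26.3% and 20.8% lower in these comparisons, without rescaling. The summed level of the 15 was 1231 to 1327 FPKM with Dox plus inhibitor, 1046 to 1082.5 with Dox, 1391 to 1622 with inhibitor and 1274 to 1434.5 in vehicle, and their part in the results below was not tested. All 12 markers of leukocyte, endothelial, podocyte and distal tubule cells stayed below 1 FPKM, with a summed level of 0.15 to 0.41 FPKM per library. In bulk RNA a change in how much RNA each cell holds cannot be told apart from a change in the mix of cells.

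The 39 tested genes did not move as a block. With Dox against vehicle, 14 of the 39 passed the test (4 higher, 10 lower), where 17.9% of all tested genes did so (10.6% higher, 7.31% lower). With Dox plus inhibitor against inhibitor, 10 passed (5 higher, 5 lower), where 18.2% of all genes did (12.2% higher, 6.06% lower). With inhibitor against vehicle, 20 passed (6 higher, 14 lower), against 38% of all genes (11.7% higher, 26.3% lower). With Dox plus inhibitor against Dox, 19 passed (9 higher, 10 lower), against 32.1% of all genes (11.3% higher, 20.8% lower). Called genes had a Benjamini-Hochberg adjusted p under 0.05 over all tested genes in a limma model of the 12 libraries, two-sided.

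The typical change was small. The median over the 39 genes was -0.07 with Dox against vehicle (all tested genes 0.04), -0.01 with Dox plus inhibitor against inhibitor (0.08), -0.06 with inhibitor against vehicle (-0.12) and -0.01 with Dox plus inhibitor against Dox (-0.08). Rescaling the libraries by their median ratio moved the median of all genes under inhibitor against vehicle to -0.01, a shift of over 0.1, so changes in that comparison are also given relative to the median of all genes. The share of calls that were higher moved with this scaling, among the 39 genes and among all tested genes alike. Over all genes called it was 35.3% with median-ratio scaling and 66.7% without it for Dox plus inhibitor against inhibitor, 55.0% and 30.8% for inhibitor against vehicle, 53.9% and 35.3% for Dox plus inhibitor against Dox, and 43.4% and 59.2% for Dox against vehicle. Among the 39 genes the calls became 2 higher and 10 lower with median-ratio scaling for Dox plus inhibitor against inhibitor (3 and 8 with quantile normalization), 10 higher and 8 lower for inhibitor against vehicle (8 and 10 with quantile normalization), and 10 higher and 6 lower for Dox plus inhibitor against Dox. For Dox against vehicle it was 4 higher and 13 lower with median-ratio scaling and 6 and 12 with quantile normalization.

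Same-numbered libraries deviated together in the pair Dox plus inhibitor and inhibitor (r of 0.13 to 0.55 over the 3 pairs). However, inhibitor 2 correlated slightly more with Dox plus inhibitor 3 (0.15) than with its own number (0.13). With the replicate number as a block 19 genes passed there (8 higher, 11 lower), where 4548 of all 12649 tested genes did (3351 higher, 1197 lower). The block added ATF4, ATF5, PHGDH, SHMT2, MTHFD1L, SLC1A5, AARS, MARS and NARS in that comparison. Across all genes the Dox changes also ran with GC content, with a rank correlation of -0.40 for Dox against vehicle and -0.57 for Dox plus inhibitor against inhibitor over 11996 genes, given as a description. Among the 39 genes these rank correlations were -0.16 and -0.40. With the trend over GC content and length removed, 25 genes passed in Dox against vehicle (9 higher, 16 lower) and 15 in Dox plus inhibitor against inhibitor (8 higher, 7 lower). Of all 11996 genes in these fits, 3293 passed in the first (2122 higher, 1171 lower) and 3372 in the second (2580 higher, 792 lower). The part of GC content in the deposited differences was not tested.

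**Figure D1:**
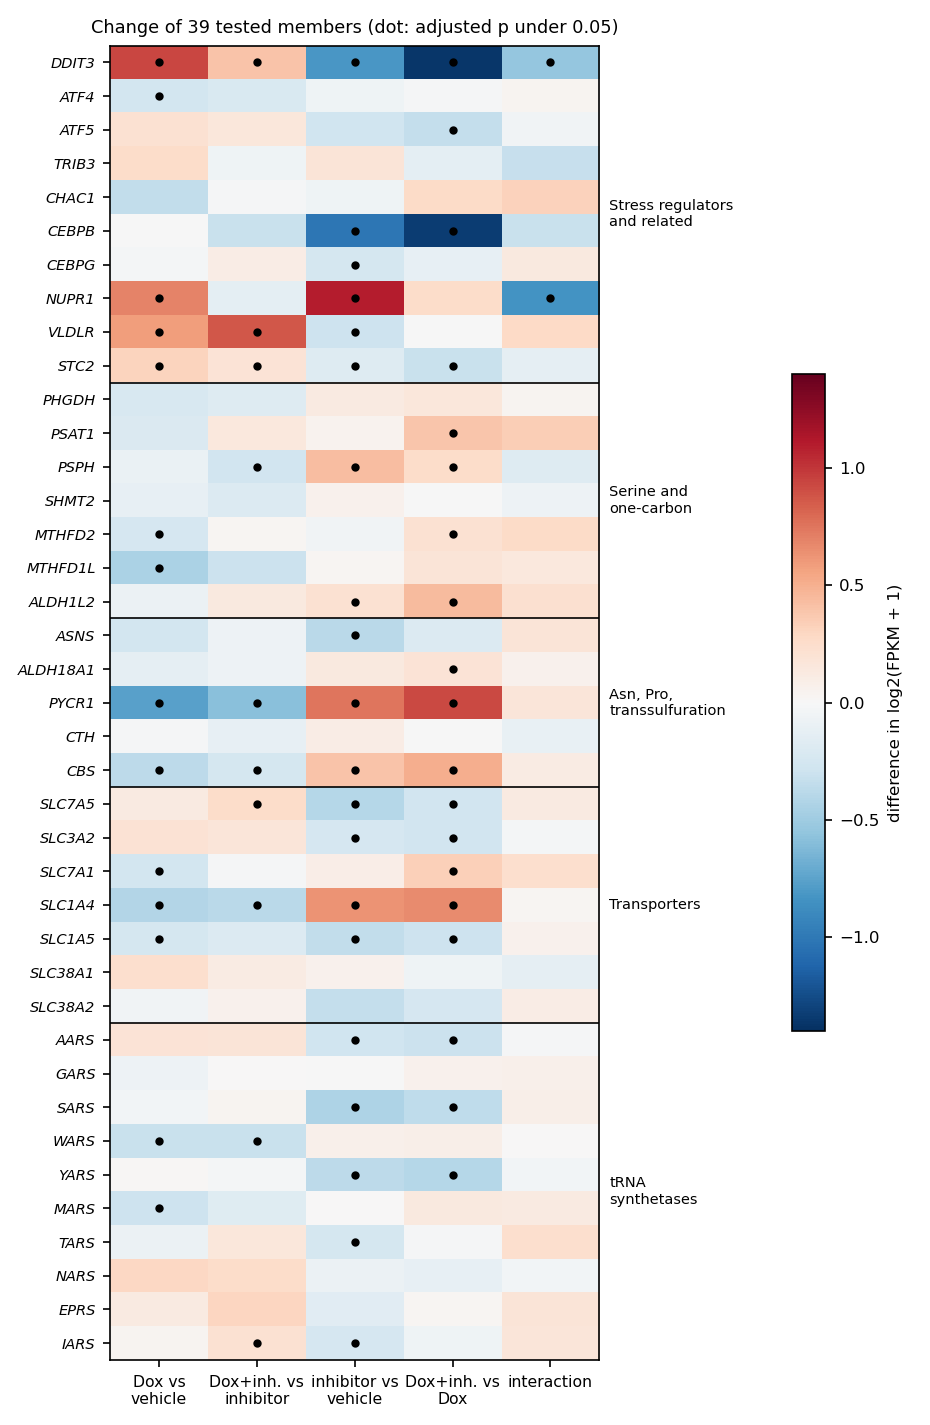
Difference in log2(FPKM + 1) of the 39 tested genes (rows, grouped by role) in the 4 comparisons of groups and in the interaction (columns), with red for higher and blue for lower and a dot where the adjusted p was under 0.05. DDIT3 and PYCR1 carry a dot in all 4 comparisons of groups, with opposite colours, and 2 genes carry one in the interaction.

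Across the 4 comparisons of groups, 29 genes passed at least 1 test and 5 passed all 4. These counts were not made over all tested genes, of which 17.9% to 38% passed in each comparison. The 10 that passed none were TRIB3, CHAC1, PHGDH, SHMT2, CTH, SLC38A1, SLC38A2, GARS, NARS and EPRS. Of these 10, 7 passed in at least 1 alternative fit, and CTH, EPRS and GARS in none. With the replicate block, PHGDH, SHMT2 and NARS passed with Dox plus inhibitor against inhibitor.

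DDIT3 (chr12:57516588-57521737, minus strand), which encodes CHOP, a stress-induced C/EBP-family factor downstream of ATF4, had the largest change of the 39 genes in any comparison of groups, with Dox plus inhibitor against Dox. It stood at 26.5, 25.4 and 24.8 FPKM with Dox plus inhibitor, 67.4, 69.7 and 64.7 with Dox, 18.7, 19.2 and 19.6 with inhibitor, and 37.5, 34.4 and 32.02 in vehicle. Each group held its own range, lowest with inhibitor, then with Dox plus inhibitor, then in vehicle, and highest with Dox. On the log2 scale it rose by 0.94 ± 0.06 with Dox against vehicle (adjusted p = 2.3e-06, limma) and by 0.40 ± 0.06 with Dox plus inhibitor against inhibitor (adjusted p = 0.0017). It changed by -0.82 ± 0.06 with inhibitor against vehicle (-0.70 relative to the median of all genes, adjusted p = 2.2e-06) and by -1.36 ± 0.06 with Dox plus inhibitor against Dox (adjusted p = 5.3e-08). The Dox rise was smaller in the presence of the inhibitor, with an interaction of -0.54 ± 0.09 (adjusted p = 0.0059). All 5 of these calls held in every alternative fit. The rise of TFE3 with Dox was also smaller in the presence of the inhibitor (interaction -0.47 ± 0.10, adjusted p = 0.023, limma), and its part in the DDIT3 interaction was not tested. DDIT3 and MARS lie tail to tail on opposite strands of chromosome 12 and their annotated spans overlap (chr12:57475445-57517569, plus strand). Whether the quantification used strand is not given in the sources used here.

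ATF4 itself (chr22:39519695-39522685, plus strand) had the highest FPKM of the 40 genes in every group and moved little. It stood at 276, 248 and 256 FPKM with Dox plus inhibitor, 265, 274 and 252 with Dox, 329.7, 295 and 285 with inhibitor, and 354, 309.9 and 287 in vehicle. The libraries with Dox lay below those in vehicle, and those with Dox plus inhibitor below those with inhibitor, while the inhibitor ranges overlapped the ranges without it. Its log2 change was -0.26 ± 0.08 with Dox against vehicle (adjusted p = 0.048, limma), a fall close to the threshold that 12 of the alternative fits did not call, with changes of -0.29 to -0.16 there. Those 12 included the fits without vehicle 1 or 2, any of the 3 Dox libraries, inhibitor 2, or Dox plus inhibitor 2 or 3. With Dox plus inhibitor against inhibitor the change was -0.22 ± 0.08 (adjusted p = 0.086), with inhibitor against vehicle -0.06 ± 0.08 (0.58) and with Dox plus inhibitor against Dox -0.02 ± 0.08 (0.88). The first of these was called lower in 5 alternative fits (-0.31 to -0.12), among them median-ratio scaling, the replicate block and the fit without vehicle 1. The second was called lower in 2 (-0.11 in each), both with the GC and length trend removed.

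ATF5, a related factor that is also controlled through translation, stood at 32.2, 27.3 and 25.3 FPKM with Dox plus inhibitor, 37.1, 37.4 and 32.7 with Dox, 28.6, 24.1 and 22.9 with inhibitor, and 33.4, 30.3 and 28.5 in vehicle. Of the 4 comparisons, only Dox plus inhibitor and Dox had ranges that were apart. Its change there was -0.33 ± 0.10 (adjusted p = 0.032, limma), a call that ended in 7 alternative fits, with changes of -0.33 to -0.25, among them both rescalings and the fits without Dox 1 or 2 or without Dox plus inhibitor 2 or 3. With inhibitor against vehicle ATF5 changed by -0.28 ± 0.10 (adjusted p = 0.056, limma), called in 5 alternative fits (-0.37 to -0.28). It was called higher in 3 alternative fits with Dox against vehicle (0.21 to 0.31), and in 3 with Dox plus inhibitor against inhibitor (0.16 to 0.32). TRIB3, a pseudokinase that is induced by ATF4 and CHOP and restrains them, stood at 78.5, 80.9 and 72.1 FPKM with Dox plus inhibitor, 76.4, 93.9 and 85.99 with Dox, 84.9, 80.7 and 75.6 with inhibitor, and 78.4, 70.3 and 64.7 in vehicle. All its ranges overlapped in the 4 comparisons, and the change nearest the threshold was 0.26 ± 0.09 with Dox against vehicle (adjusted p = 0.066). That rise passed in 6 alternative fits with changes of 0.26 to 0.35, among them quantile normalization, the replicate block, removal of the GC and length trend, and the fits without vehicle 1 or Dox 1. With inhibitor against vehicle TRIB3 passed with median-ratio scaling (0.30) and without vehicle 1 (0.25).

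CHAC1, which degrades glutathione and is a sensitive target of ATF4, stood at 5.33, 5.24 and 5.71 FPKM with Dox plus inhibitor, 4.43, 4.64 and 3.94 with Dox, 6.91, 5.37 and 4.49 with inhibitor, and 5.98, 6.17 and 5.24 in vehicle. The Dox libraries lay below those of vehicle and of Dox plus inhibitor, but the changes did not pass in the model of all 12 libraries (-0.35 ± 0.12 with Dox against vehicle, adjusted p = 0.062; 0.27 ± 0.12 with Dox plus inhibitor against Dox, adjusted p = 0.1; limma). CHAC1 was called lower with Dox against vehicle in 8 alternative fits with changes of -0.44 to -0.26, among them both rescalings, the replicate block, removal of the GC and length trend, and the fits without inhibitor 1 or 3. It was called higher with Dox plus inhibitor against Dox in 4 fits with changes of 0.26 to 0.27, including the one without inhibitor 1.

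CEBPB (chr20:50190734-50192689, plus strand), a C/EBP factor that can pair with ATF4, had the largest fall of the 39 genes with inhibitor against vehicle. It stood at 7.28, 5.80 and 6.26 FPKM with Dox plus inhibitor, 17.2, 15.6 and 20.3 with Dox, 10.3, 9.64 and 5.46 with inhibitor, and 21.4, 18.3 and 13.9 in vehicle. Every library with the inhibitor lay below every library without it, and the Dox ranges overlapped the ranges without Dox on either side. CEBPB fell with inhibitor against vehicle (-1.01 ± 0.21 on the log2 scale, -0.90 relative to the median, adjusted p = 0.0027, limma) and with Dox plus inhibitor against Dox (-1.32 ± 0.21, adjusted p = 0.00057). Its change with Dox against vehicle was 0.00 ± 0.21 (adjusted p = 1). The change with Dox plus inhibitor against inhibitor was -0.31 ± 0.21 (adjusted p = 0.29), called only without inhibitor 3 (-0.57). CEBPG, another C/EBP partner of ATF4, averaged 12.6 ± 1.20 FPKM with inhibitor and 15.1 ± 0.742 FPKM in vehicle (SD, n = 3 each), a change of -0.24 ± 0.08 (-0.13 relative to the median, adjusted p = 0.037). That call ended in 11 alternative fits, with changes of -0.27 to -0.13, including both rescalings and the fits without vehicle 2 or 3, Dox 1 or 2, inhibitor 1 or 2, or Dox plus inhibitor 2.

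NUPR1 (chr16:28532708-28539174, minus strand), a small stress-induced nuclear protein, was low but moved in its own way. It stood at 4.89, 3.27 and 4.14 FPKM with Dox plus inhibitor, 3.29, 3.34 and 3.03 with Dox, 5.34, 3.93 and 4.54 with inhibitor, and 1.95, 1.56 and 1.35 in vehicle. The vehicle libraries lay below all 9 others, and the ranges with Dox plus inhibitor overlapped those with Dox and with inhibitor. NUPR1 rose with Dox against vehicle (0.69 ± 0.13, adjusted p = 0.0036, limma) and with inhibitor against vehicle (1.10 ± 0.13, 1.21 relative to the median, adjusted p = 7.5e-05). In the presence of the other agent the changes were -0.14 ± 0.13 for Dox (adjusted p = 0.45) and 0.26 ± 0.13 for the inhibitor (adjusted p = 0.15). The interaction was -0.83 ± 0.18 (adjusted p = 0.035), and this call ended in 11 alternative fits with values of -0.87 to -0.71, among them quantile normalization, no filter on low values, and the fits without vehicle 2 or 3, any Dox library, inhibitor 1 or 3, or Dox plus inhibitor 2 or 3.

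VLDLR (chr9:2621834-2660053, plus strand), a lipoprotein receptor that ATF4 can induce, stood at 40.5, 44.1 and 40.9 FPKM with Dox plus inhibitor, 41.8, 41.4 and 43.2 with Dox, 20.96, 23.7 and 22.9 with inhibitor, and 28.5, 27.4 and 27.3 in vehicle. All 6 libraries with Dox lay above the 6 without it. It rose with Dox against vehicle (0.59 ± 0.06, adjusted p = 3.6e-05, limma) and with Dox plus inhibitor against inhibitor (0.87 ± 0.06, adjusted p = 8.5e-06). Without Dox the inhibitor libraries were lower than vehicle (-0.29 ± 0.06, -0.17 relative to the median, adjusted p = 0.002), and with Dox the change by the inhibitor was -0.01 ± 0.06 (adjusted p = 0.91). The interaction, 0.28 ± 0.08, did not pass (adjusted p = 0.1). STC2, a secreted glycoprotein induced by endoplasmic reticulum stress, rose with Dox against vehicle as well (0.31 ± 0.05, adjusted p = 0.0016) and averaged 18.6 ± 0.199 FPKM with Dox and 14.8 ± 0.88 FPKM in vehicle (SD, n = 3 each). It was lower with Dox plus inhibitor than with Dox (-0.31 ± 0.05, adjusted p = 0.00099). Its smaller calls, 0.19 with Dox plus inhibitor against inhibitor and -0.19 with inhibitor against vehicle, both ended under median-ratio scaling (0.11 and -0.07). The first also ended without inhibitor 2 or any of the Dox plus inhibitor libraries (0.18 to 0.20), and the second without vehicle 2 or inhibitor 2 (-0.18 and -0.17).

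**Figure D2:**
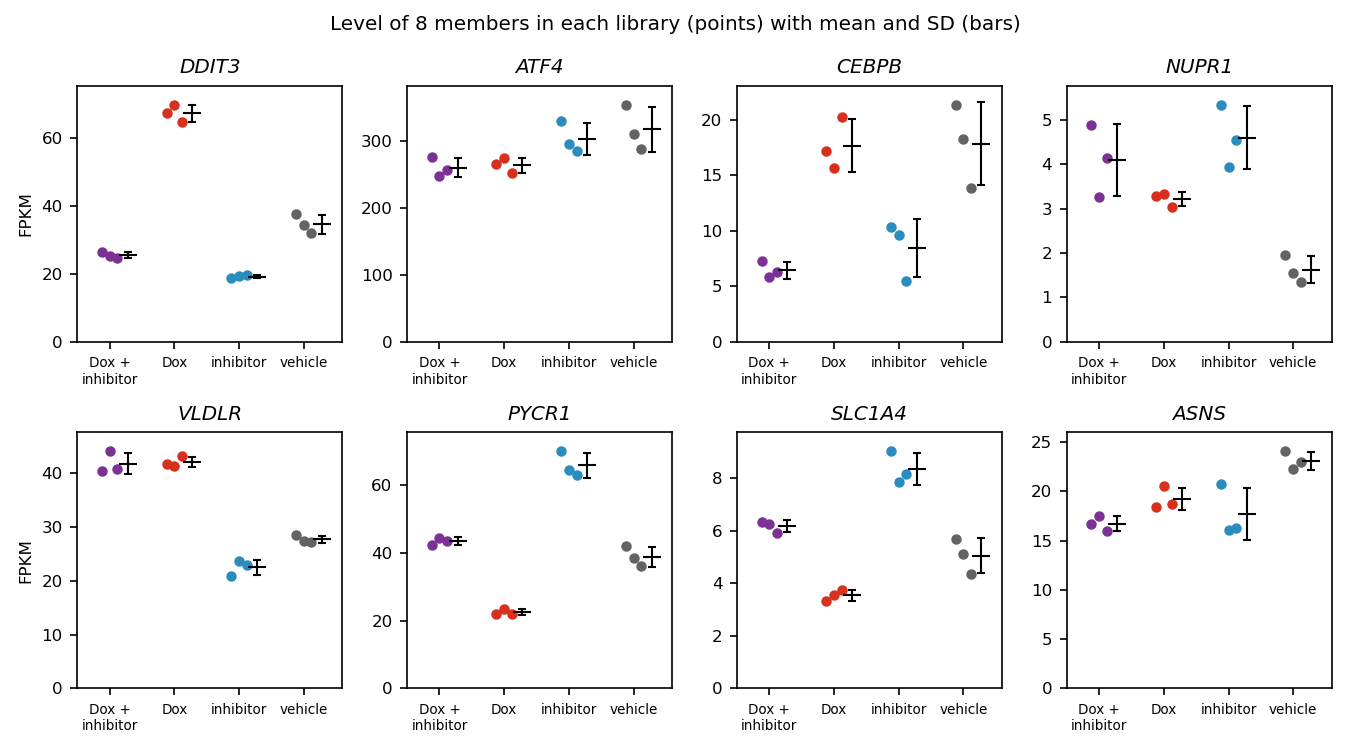
FPKM (vertical axes, starting at 0) of 8 genes in each of the 12 libraries (points), by group (horizontal axes), with black bars for the mean and SD of the 3 libraries. DDIT3 is highest with Dox and lowest with inhibitor, PYCR1 and SLC1A4 are highest with inhibitor and lowest with Dox, the 6 libraries with Dox lie above the rest for VLDLR, and the 6 libraries with inhibitor lie below the rest for CEBPB.

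Counted over the 10 regulators and stress-induced genes, 4 were higher and 1 lower with Dox against vehicle, 3 were higher with Dox plus inhibitor against inhibitor, 1 was higher and 5 lower with inhibitor against vehicle, and 4 were lower with Dox plus inhibitor against Dox. With median-ratio scaling the inhibitor against vehicle count became 2 higher and 3 lower, and the Dox plus inhibitor against inhibitor count 2 higher and 1 lower. Without this scaling, the shares of all tested genes higher and lower were 10.6% and 7.31%, 12.2% and 6.06%, 11.7% and 26.3%, and 11.3% and 20.8%. They follow the order of the comparisons above, and stand beside the counts by role and by list below as well. With median-ratio scaling, 1036 of all 12649 tested genes were higher and 1350 lower, then 658 and 1208, 2220 and 1815, and 1956 and 1675.

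Among the enzymes of serine and one-carbon metabolism, the calls were lower in the Dox comparisons and higher in the inhibitor comparisons. Of the 7, 2 were lower with Dox against vehicle and 1 was lower with Dox plus inhibitor against inhibitor, whereas 2 were higher with inhibitor against vehicle and 4 were higher with Dox plus inhibitor against Dox. Their median change was -0.20 with Dox against vehicle and 0.22 with Dox plus inhibitor against Dox, beside 0.04 and -0.08 for all tested genes. All 7 had a negative change with Dox against vehicle, from -0.44 to -0.09. MTHFD2 (mitochondrial methylenetetrahydrofolate dehydrogenase) fell with Dox against vehicle (-0.24 ± 0.05, adjusted p = 0.0067, limma) and rose with Dox plus inhibitor against Dox (0.22 ± 0.05, adjusted p = 0.007).

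MTHFD1L, the mitochondrial enzyme that releases formate, stood at 30.6, 22.9 and 26.2 FPKM with Dox plus inhibitor, 25.2, 22.4 and 22.2 with Dox, 36.9, 31.6 and 29.8 with inhibitor, and 35.7, 30.8 and 29.6 in vehicle. The Dox libraries lay below vehicle, and the ranges with and without inhibitor overlapped. Its fall with Dox against vehicle was the largest among these 7 (-0.44 ± 0.11, adjusted p = 0.019, limma), but the call ended without vehicle 1, Dox 2 or Dox 3, with changes of -0.42 to -0.36. With Dox plus inhibitor against inhibitor the change was -0.30 ± 0.11 (adjusted p = 0.09), which passed in 5 alternative fits (-0.40 to -0.27), including the replicate block and the fit without Dox plus inhibitor 1.

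The serine synthesis enzymes differed among themselves. PSPH, the phosphatase of the last step, stood at 74.6, 63.7 and 66.9 FPKM with Dox plus inhibitor, 57.2, 57.9 and 55.9 with Dox, 92.97, 78.8 and 76.5 with inhibitor, and 64.5, 58.4 and 59.4 in vehicle. The inhibitor libraries were the highest and lay apart from vehicle and from Dox plus inhibitor. PSPH rose with inhibitor against vehicle (0.43 ± 0.08, 0.55 relative to the median, adjusted p = 0.0015, limma). Its other 2 calls held in fewer fits. The fall with Dox plus inhibitor against inhibitor (-0.27 ± 0.08, adjusted p = 0.04) ended in 10 alternative fits with changes of -0.30 to -0.18, including those without vehicle 2, any Dox library, inhibitor 1 or 2, or Dox plus inhibitor 2 or 3. The rise with Dox plus inhibitor against Dox (0.26 ± 0.08, adjusted p = 0.03) ended in 5 fits with changes of 0.19 to 0.27, those without any 1 Dox library or without Dox plus inhibitor 1 or 3.

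PSAT1, the aminotransferase before it, stood at 43.8, 43.1 and 44.6 FPKM with Dox plus inhibitor, 33.1, 32.8 and 33.6 with Dox, 44.5, 37.2 and 37.4 with inhibitor, and 39.6, 36.4 and 38.97 in vehicle. The Dox libraries were the lowest and lay apart from every other group. PSAT1 rose with Dox plus inhibitor against Dox (0.39 ± 0.07, adjusted p = 0.0011, limma), and its change with Dox against vehicle was -0.20 ± 0.07 (adjusted p = 0.061), which passed in 6 alternative fits (-0.26 to -0.20), including the one without inhibitor 1. PHGDH, which commits glycolytic carbon to serine, and SHMT2, which turns serine into glycine in mitochondria, passed in none of the 4 comparisons, with changes between -0.22 and 0.16 and between -0.19 and 0.06. With the replicate block both were called lower with Dox plus inhibitor against inhibitor (-0.18 and -0.19). SHMT2 was also called lower there with median-ratio scaling (-0.27) and quantile normalization (-0.21). PHGDH was called lower with Dox against vehicle in 3 alternative fits (-0.22 to -0.13) and higher with Dox plus inhibitor against Dox in 3 (0.14 to 0.16).

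ALDH1L2, which oxidises formyltetrahydrofolate in mitochondria, stood at 4.37, 4.89 and 4.83 FPKM with Dox plus inhibitor, 3.24, 3.27 and 3.06 with Dox, 3.80, 4.41 and 4.33 with inhibitor, and 3.10, 3.57 and 3.70 in vehicle. The Dox plus inhibitor libraries were above all Dox libraries. It rose with Dox plus inhibitor against Dox (0.44 ± 0.08, adjusted p = 0.0012, limma). The smaller rise with inhibitor against vehicle (0.22 ± 0.08, 0.33 relative to the median, adjusted p = 0.044) ended in 11 alternative fits with changes of 0.16 to 0.24, including those without vehicle 1 or 2, any Dox library, inhibitor 2 or 3, or Dox plus inhibitor 2 or 3.

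Among the enzymes of asparagine, proline and cysteine synthesis, PYCR1 (chr17:81932384-81942412, minus strand), the mitochondrial reductase of the final step to proline, had the largest change of the 12 metabolic enzymes in each of the 4 comparisons of groups. It stood at 42.2, 44.5 and 43.6 FPKM with Dox plus inhibitor, 21.9, 23.5 and 21.9 with Dox, 69.97, 64.5 and 63.1 with inhibitor, and 41.9, 38.5 and 36.04 in vehicle. No ranges overlapped, with the inhibitor libraries highest, then Dox plus inhibitor, then vehicle, and the Dox libraries lowest. PYCR1 fell with Dox against vehicle (-0.76 ± 0.06, adjusted p = 1.3e-05, limma) and with Dox plus inhibitor against inhibitor (-0.59 ± 0.06, adjusted p = 0.00018). It rose with inhibitor against vehicle (0.75 ± 0.06, 0.87 relative to the median, adjusted p = 6e-06) and with Dox plus inhibitor against Dox (0.92 ± 0.06, adjusted p = 1.4e-06). These 4 calls held in every alternative fit, and the interaction did not pass (0.17 ± 0.09, adjusted p = 0.44). ALDH18A1, which makes the precursor that PYCR1 reduces, averaged 70.9 ± 2.58 FPKM with Dox plus inhibitor and 61.9 ± 1.33 FPKM with Dox (SD, n = 3 each). That rise (0.19 ± 0.07, adjusted p = 0.047) ended in 10 alternative fits with changes of 0.16 to 0.21, among them the fits without any 1 of the 6 libraries compared and those without vehicle 2 or inhibitor 2.

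CBS, the first enzyme of transsulfuration from homocysteine towards cysteine, followed the same order of groups. It stood at 31.8, 30.1 and 30.7 FPKM with Dox plus inhibitor, 21.5, 20.7 and 21.8 with Dox, 38.9, 35.7 and 36.1 with inhibitor, and 29.9, 29.6 and 23.9 in vehicle. The ranges did not overlap in any pair, although the highest vehicle library and the lowest Dox plus inhibitor library were close. CBS fell with Dox against vehicle (-0.36 ± 0.08, adjusted p = 0.0078, limma) and rose with inhibitor against vehicle (0.40 ± 0.08, 0.52 relative to the median, adjusted p = 0.002) and with Dox plus inhibitor against Dox (0.51 ± 0.08, adjusted p = 0.00048). The fall with Dox plus inhibitor against inhibitor (-0.25 ± 0.08, adjusted p = 0.046) ended in 14 alternative fits with changes of -0.27 to -0.11, including 10 of the 12 fits that left out 1 library (all but vehicle 1 and vehicle 3). CTH, the next enzyme of that route, stayed between 1.83 and 2.47 FPKM in all libraries and passed in no comparison.

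ASNS (chr7:97852118-97872542, minus strand), asparagine synthetase and a textbook target of ATF4, stood at 16.7, 17.5 and 16.01 FPKM with Dox plus inhibitor, 18.4, 20.5 and 18.7 with Dox, 20.7, 16.1 and 16.3 with inhibitor, and 24.04, 22.2 and 23.00 in vehicle. The vehicle libraries lay above all 9 others. ASNS fell with inhibitor against vehicle (-0.37 ± 0.09, -0.26 relative to the median, adjusted p = 0.0064, limma). The other changes were -0.25 ± 0.09 with Dox against vehicle (adjusted p = 0.071), -0.07 ± 0.09 with Dox plus inhibitor against inhibitor (0.59) and -0.19 ± 0.09 with Dox plus inhibitor against Dox (0.13). The first of these passed in 7 alternative fits (-0.30 to -0.25), among them both rescalings and the fit without inhibitor 1, and the last in 2 (-0.19 in each), one of them without inhibitor 1. Thus ASNS fell with the inhibitor while PYCR1 and CBS rose, and over these 5 enzymes the counts were 2 lower with either Dox comparison, 2 higher and 1 lower with inhibitor against vehicle, and 3 higher with Dox plus inhibitor against Dox.

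The transporters differed among themselves, also within a family. SLC1A4 (chr2:64988477-65023865, plus strand), a carrier of alanine, serine and cysteine, stood at 6.34, 6.27 and 5.91 FPKM with Dox plus inhibitor, 3.31, 3.57 and 3.74 with Dox, 9.03, 7.88 and 8.17 with inhibitor, and 5.69, 5.13 and 4.36 in vehicle. All 4 ranges were apart, in the same order as for PYCR1. SLC1A4 fell with Dox against vehicle (-0.41 ± 0.09, adjusted p = 0.0063, limma) and rose with inhibitor against vehicle (0.63 ± 0.09, 0.75 relative to the median, adjusted p = 0.00019) and with Dox plus inhibitor against Dox (0.66 ± 0.09, adjusted p = 0.00016). Its fall with Dox plus inhibitor against inhibitor (-0.38 ± 0.09, adjusted p = 0.012) ended only without Dox plus inhibitor 3 (-0.36).

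SLC7A5, the light chain of the exchanger that imports leucine and other large neutral amino acids, moved the other way with the inhibitor. It stood at 75.8, 73.2 and 71.9 FPKM with Dox plus inhibitor, 86.2, 88.7 and 91.95 with Dox, 65.2, 60.4 and 58.4 with inhibitor, and 88.7, 82.7 and 72.7 in vehicle. The inhibitor libraries were the lowest and lay apart from every other group. SLC7A5 fell with inhibitor against vehicle (-0.40 ± 0.07, -0.28 relative to the median, adjusted p = 0.0012, limma). It also fell with Dox plus inhibitor against Dox (-0.27 ± 0.07, adjusted p = 0.014), a call that ended with median-ratio scaling (-0.18) and without Dox 3 (-0.24). It rose with Dox plus inhibitor against inhibitor (0.26 ± 0.07, adjusted p = 0.028), a call that ended in 6 alternative fits with changes of 0.17 to 0.28, those with median-ratio scaling and without inhibitor 2 or 3 or any Dox plus inhibitor library.

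SLC3A2, the heavy chain that SLC7A5 needs, averaged 68.6 ± 2.27 FPKM with Dox plus inhibitor, 82.6 ± 3.14 with Dox, 60.9 ± 5.42 with inhibitor and 72.1 ± 6.98 in vehicle (SD, n = 3 each). Its falls with inhibitor against vehicle (-0.24 ± 0.08, -0.12 relative to the median) and with Dox plus inhibitor against Dox (-0.27 ± 0.08) both passed (adjusted p = 0.032 and 0.023, limma), and both ended with median-ratio scaling (-0.12 and -0.18). The first also ended without vehicle 1 or 2 or inhibitor 2 or 3 (-0.24 to -0.17), and the second without Dox 1 or 2 or Dox plus inhibitor 1 or 3 (-0.28 to -0.23). SLC1A5, the main glutamine carrier of many cultured lines, averaged 65.1 ± 2.24 FPKM with Dox plus inhibitor, 79.9 ± 0.58 with Dox, 74.3 ± 4.18 with inhibitor and 95.01 ± 10.9 in vehicle (SD, n = 3 each). It fell with inhibitor against vehicle (-0.35 ± 0.07, -0.23 relative to the median, adjusted p = 0.0038) and with Dox plus inhibitor against Dox (-0.29 ± 0.07, adjusted p = 0.012), the second not under median-ratio scaling (-0.21). Its fall with Dox against vehicle (-0.24 ± 0.07, adjusted p = 0.046) ended in 13 alternative fits, with changes of -0.25 to -0.16, including 10 of the 12 fits that left out 1 library (all but vehicle 3 and inhibitor 1).

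SLC7A1, the importer of arginine and lysine, fell with Dox against vehicle (-0.25 ± 0.05, adjusted p = 0.0083, limma) and rose with Dox plus inhibitor against Dox (0.34 ± 0.05, adjusted p = 0.00081). SLC38A1 and SLC38A2, sodium-coupled carriers of glutamine and other small neutral amino acids, passed in no comparison. SLC38A2 was called lower with inhibitor against vehicle in 5 alternative fits (-0.47 to -0.23). Among them were the replicate block (-0.34) and the fits without vehicle 1 (-0.45) or inhibitor 3 (-0.47). It was called lower in 3 fits with Dox plus inhibitor against Dox (-0.23 to -0.17) and in 2 with Dox against vehicle (-0.25 in each). SLC38A1 was called higher with Dox against vehicle in 2 fits (0.15 and 0.24). The lowest library of SLC38A1 and SLC38A2 was replicate 1 in 3 of the 4 groups each, for example 46.5, 63.6 and 71.7 FPKM with inhibitor and 64.9, 76.8 and 86.9 in vehicle for SLC38A2. This spread within groups was as wide as the differences between them. Over the 7 tested transporters the counts were 3 lower with Dox against vehicle, 1 higher and 1 lower with Dox plus inhibitor against inhibitor, 1 higher and 3 lower with inhibitor against vehicle, and 2 higher and 3 lower with Dox plus inhibitor against Dox. With median-ratio scaling the last 3 became 2 lower, 2 higher and 2 lower, and 2 higher.

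The 10 cytosolic tRNA synthetases were expressed at 34.2 FPKM or more in every library, and 8 of their 12 calls in the 4 comparisons of groups came from the 2 inhibitor comparisons (66.7%, beside 66.0% of the calls over all tested genes). With inhibitor against vehicle 5 were lower, and with Dox plus inhibitor against Dox 3 were lower. With median-ratio scaling these counts became 1 higher and 2 lower, and 1 higher and 3 lower. The Dox comparisons gave 2 lower with Dox against vehicle, and 1 higher and 1 lower with Dox plus inhibitor against inhibitor.

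SARS, which charges serine, stood at 67.4, 58.9 and 56.7 FPKM with Dox plus inhibitor, 80.3, 80.1 and 74.1 with Dox, 64.6, 59.2 and 54.2 with inhibitor, and 87.3, 79.6 and 74.8 in vehicle. It was lower with inhibitor than in vehicle (-0.44 ± 0.08, -0.32 relative to the median, adjusted p = 0.0021, limma) and lower with Dox plus inhibitor than with Dox (-0.36 ± 0.08, adjusted p = 0.008), and the 6 libraries with inhibitor lay below the 6 without. YARS, which charges tyrosine, stood at 42.7, 38.7 and 35.4 FPKM with Dox plus inhibitor, 52.95, 53.6 and 47.9 with Dox, 43.7, 37.6 and 37.2 with inhibitor, and 54.1, 49.8 and 48.99 in vehicle. Here too every library with inhibitor lay below every library without it, and the changes were -0.36 ± 0.08 (-0.24 relative to the median, adjusted p = 0.0059) and -0.40 ± 0.08 (adjusted p = 0.0041). AARS, for alanine, fell in the same comparisons (-0.28 ± 0.07, -0.16 relative to the median, and -0.30 ± 0.07; adjusted p = 0.0088 and 0.0077), in the first not under median-ratio scaling (-0.16).

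WARS, which charges tryptophan, passed in both Dox comparisons, and its inhibitor changes of 0.07 and 0.08 did not pass. It stood at 39.1, 39.1 and 36.7 FPKM with Dox plus inhibitor, 37.2, 37.1 and 34.2 with Dox, 51.6, 46.9 and 44.4 with inhibitor, and 47.6, 44.7 and 43.3 in vehicle. The 6 libraries with Dox lay below the 6 without it. WARS fell with Dox against vehicle (-0.32 ± 0.07, adjusted p = 0.0062, limma) and with Dox plus inhibitor against inhibitor (-0.31 ± 0.07, adjusted p = 0.0094), and both calls held in every alternative fit. MARS, for methionine, fell with Dox against vehicle (-0.29 ± 0.06, adjusted p = 0.0076), and its span overlaps DDIT3, which rose there. The calls of IARS, for isoleucine, and TARS, for threonine, depended on the scaling. IARS changed by 0.21 with Dox plus inhibitor against inhibitor and by -0.23 with inhibitor against vehicle (0.13 and -0.11 with median-ratio scaling, neither called), and its Dox call also ended without inhibitor 1 or any Dox plus inhibitor library (0.16 to 0.23). TARS changed by -0.25 with inhibitor against vehicle, a call that ended in 14 alternative fits with changes of -0.26 to -0.13, including all leave-one-out fits except those without vehicle 1, inhibitor 3 or Dox plus inhibitor 1.

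GARS, NARS and EPRS, for glycine, asparagine and glutamate with proline, passed in no comparison. With the replicate block NARS was called higher with Dox plus inhibitor against inhibitor (0.26). It was also called higher with Dox against vehicle in 3 alternative fits (0.29 in each), the replicate block among them. GARS stayed between 52.6 and 59.9 FPKM in all 12 libraries. EPRS spread widely within groups, with 42.9, 61.2 and 72.5 FPKM with inhibitor and 46.8, 71.5 and 78.9 in vehicle, and its replicate 1 was low in each of these.

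**Figure D3:**
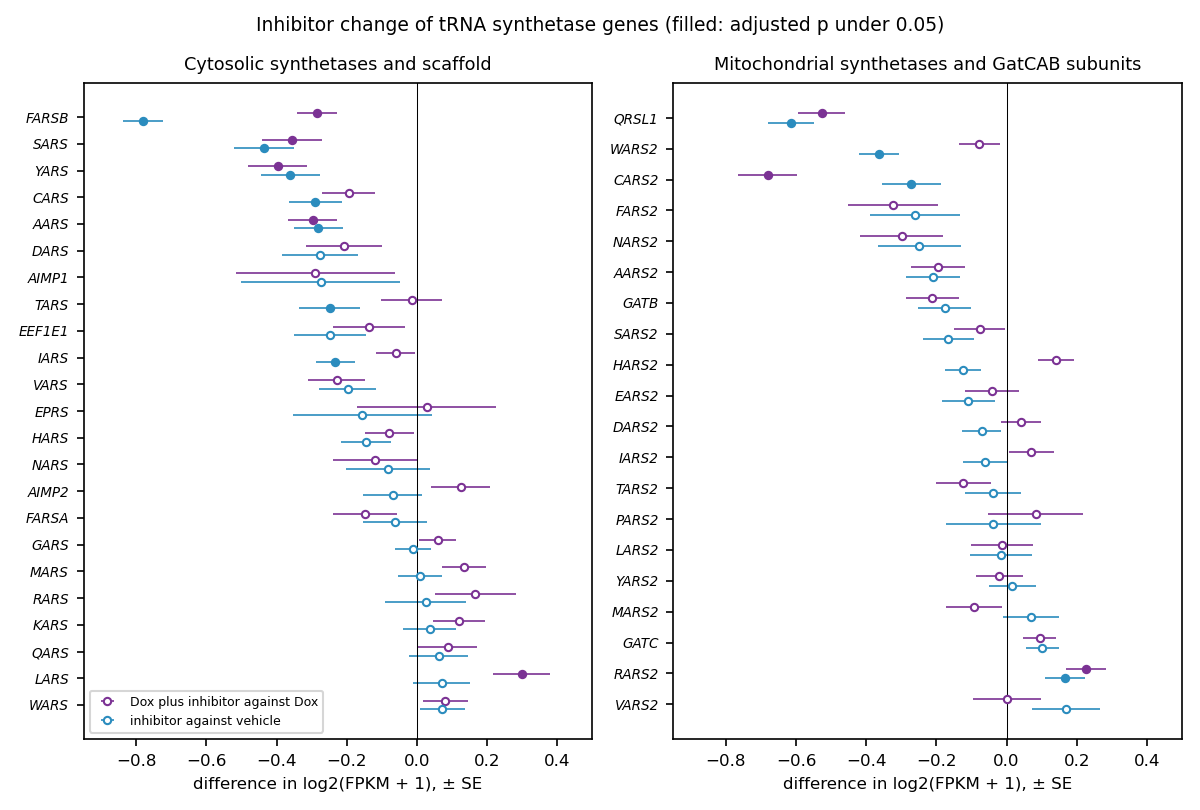
Inhibitor change in log2(FPKM + 1) with its SE (horizontal axes) for cytosolic synthetases with their scaffold proteins (left) and mitochondrial synthetases with GatCAB subunits (right), in cells with Dox (purple) and without it (blue), with filled points where the adjusted p was under 0.05. On the left SARS, YARS, AARS and FARSB are filled for both, and on the right CARS2, RARS2 and QRSL1, and FARSB without Dox lies farthest to the left.

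Promoter sequence was read to show where the ATF4 element occurs among these genes. The element bound by ATF4 with a C/EBP partner was searched as TGATGNAA on both strands in the 250 bases before each annotated start (RefSeq, GRCh38.p14). Promoters matched 34 of the 40 genes. PSPH, SHMT2, ALDH1L2, PYCR1, NUPR1 and YARS had no entry. The element was found in 8 of the 34 (23.5%), against 1061 of 27305 gene symbols (3.89%). The sites are shown with up to 30 bases on either side, 5′ to 3′ on the strand of the gene, the element in capitals as it reads on that strand.
CHAC1 (chr15:40953232-40953299, plus strand, element from 209 bases before the start): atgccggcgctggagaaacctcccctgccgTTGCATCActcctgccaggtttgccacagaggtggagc
ASNS (chr7:97872439-97872506, minus strand, element from 68 bases before the start): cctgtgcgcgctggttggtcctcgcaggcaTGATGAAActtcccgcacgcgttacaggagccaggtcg
MTHFD1L (chr6:150866327-150866394, plus strand, element from 129 bases before the start): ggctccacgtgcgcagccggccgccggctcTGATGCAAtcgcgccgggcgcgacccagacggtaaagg
CEBPG (chr19:33374041-33374108, plus strand, element from 42 bases before the start): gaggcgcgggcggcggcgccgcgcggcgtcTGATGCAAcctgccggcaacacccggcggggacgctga
SLC1A5 (chr19:46784874-46784941, minus strand, element from 97 bases before the start): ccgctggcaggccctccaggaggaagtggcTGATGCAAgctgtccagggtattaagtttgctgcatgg
AARS (chr16:70289656-70289723, minus strand, element from 187 bases before the start): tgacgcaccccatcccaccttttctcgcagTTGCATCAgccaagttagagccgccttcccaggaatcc
GARS (chr7:30594815-30594877, plus strand, element from 33 bases before the start): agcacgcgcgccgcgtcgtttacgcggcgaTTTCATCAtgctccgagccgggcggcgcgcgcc
IARS (chr9:92293698-92293740, minus strand, element from 13 bases before the start): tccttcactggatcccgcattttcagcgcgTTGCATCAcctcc
The element sat close to the start in IARS, GARS and CEBPG and farther upstream in CHAC1 and AARS. A gene could have several annotated starts, and a match before any of them counted. The SLC1A5 site lay well inside the annotated span of that gene (chr19:46774883-46788594), before an internal start. Most other sites also lay within the span of their gene, but nearer its 5′ end. A match is a run of letters and does not show binding.

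Genes with the element did not share one response. Of the 8, all tested, 5 were lower with inhibitor against vehicle (ASNS, CEBPG, SLC1A5, AARS and IARS), which became 2 with median-ratio scaling and 4 with quantile normalization. Among the 25 tested and matched genes without it, 2 were higher and 8 lower. These became 6 and 5 with median-ratio scaling, and 4 and 5 with quantile normalization. Of all tested genes, 11.7% were higher and 26.3% lower without rescaling. With Dox against vehicle 2 of the 8 were lower (MTHFD1L and SLC1A5), calls that ended in 3 and 13 alternative fits. Of the 25, 3 were higher and 7 lower there, where 10.6% and 7.31% of all tested genes were. The sequence CACGTG, an E-box that TFE3 and related factors bind, which reads alike on both strands, was found in 6 of the 34 promoters (17.6%; ATF4, MTHFD1L, ALDH18A1, SLC7A5, SLC1A5 and IARS), against 7.73% of gene symbols. No test was made on these shares.

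The Dox change was also compared between cells with and without the inhibitor, which share no libraries. The tests of both changes used the same estimate of each gene's spread, made from all 12 libraries, so their calls are not independent. Over the 39 genes the pair of changes had a Pearson r of 0.71 and a Spearman rho of 0.71, and 28 had the same sign (71.8%), beside an r of 0.55, a rho of 0.66 and 74.3% for all tested genes. These are descriptions across genes, which are not independent replicates. The genes that passed both tests in the same direction were DDIT3, STC2 and VLDLR (higher) and CBS, PYCR1, SLC1A4 and WARS (lower), which is 7 of the 14 genes called with Dox against vehicle and 7 of the 10 called with Dox plus inhibitor against inhibitor (50% and 70%, beside 45.7% and 45.0% over all tested genes). The interaction passed for 2 of the 39 genes, DDIT3 and NUPR1, both negative, where 2.82% of all tested genes passed (0.909% positive, 1.91% negative). The NUPR1 call ended in 11 alternative fits. For the other 37 a difference in the Dox change was not detected, with estimates from -0.32 (TRIB3) to 0.35 (PSAT1, adjusted p = 0.091).

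**Figure D4:**
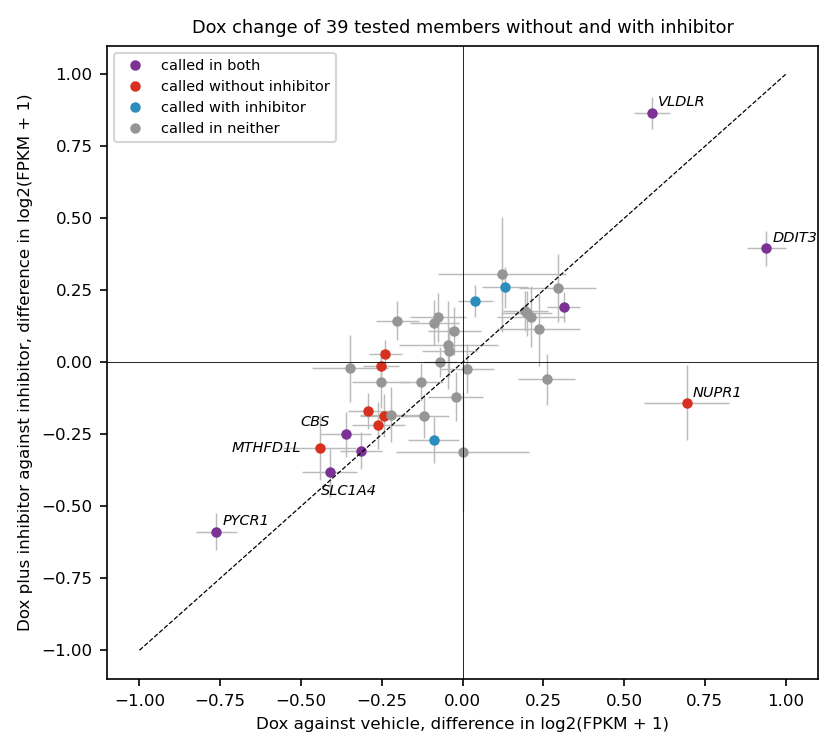
Dox change in log2(FPKM + 1) of the 39 tested genes with Dox against vehicle (horizontal) and with Dox plus inhibitor against inhibitor (vertical), bars showing the SE, the dashed line marking equal changes and colours showing which comparisons passed. DDIT3 (0.94 and 0.40) lies below the line, NUPR1 has changes of opposite sign and did not pass on the vertical axis, and VLDLR (0.59 and 0.87) lies above the line.

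The inhibitor change was read in the same manner without and with Dox, again with no shared libraries but with the same estimate of spread. The genes that passed in both and in the same direction were ALDH1L2, CBS, PSPH, PYCR1 and SLC1A4 (higher) and AARS, CEBPB, DDIT3, SARS, SLC1A5, SLC3A2, SLC7A5, STC2 and YARS (lower). They are 14 of the 20 genes called with inhibitor against vehicle and 14 of the 19 called with Dox plus inhibitor against Dox (70% and 73.7%, beside 60.8% and 71.9% over all tested genes). Both lists mix roles: the higher genes are 4 enzymes and 1 carrier, and the lower genes are 3 regulators or stress-induced genes, 3 carriers and 3 synthetases.

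Other genes of the pathway were counted from lists. Of 18 genes for the eIF2 kinases and proteins that act on them, the subunits of the eIF2 phosphatases, eIF2 and eIF2B, 2 were higher in each Dox comparison (1 higher and 2 lower with Dox against vehicle, and 2 higher and 2 lower with Dox plus inhibitor against inhibitor, with median-ratio scaling). With inhibitor against vehicle 8 were lower (44.4%, where 26.3% of all tested genes were), and with Dox plus inhibitor against Dox 6 were lower and 1 higher (33.3% lower, where 20.8% were). These became 1 higher and 5 lower, and 1 higher and 3 lower, with median-ratio scaling. PPP1R15A, the phosphatase subunit that reverses eIF2 phosphorylation and is itself induced by CHOP, averaged 43.7 ± 5.21 FPKM with Dox plus inhibitor, 71.5 ± 3.99 with Dox, 39.04 ± 3.59 with inhibitor and 55.2 ± 5.58 in vehicle (SD, n = 3 each). It rose with Dox against vehicle (0.37 ± 0.10, adjusted p = 0.023, limma), a call that ended without vehicle 2 or 3 or Dox 1 or 2 (0.33 to 0.35). It fell with inhibitor against vehicle (-0.49 ± 0.10, -0.37 relative to the median, adjusted p = 0.0025, limma) and with Dox plus inhibitor against Dox (-0.70 ± 0.10, adjusted p = 0.00027). EIF2B1, a subunit of the exchange factor eIF2B, fell in these comparisons as well (-0.55 ± 0.05, -0.43 relative to the median, and -0.47 ± 0.05; adjusted p = 1.6e-05 and 5.2e-05).

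Of 17 tested genes among 20 others linked to ATF4, 2 were higher and 2 lower with Dox against vehicle, 2 higher and 3 lower with Dox plus inhibitor against inhibitor, 4 higher and 5 lower with inhibitor against vehicle, and 2 higher and 6 lower with Dox plus inhibitor against Dox. In the same order, 10.6% of all tested genes were higher and 7.31% lower, then 12.2% and 6.06%, 11.7% and 26.3%, and 11.3% and 20.8%. With median-ratio scaling the first became 2 higher and 5 lower and the last 4 higher and 5 lower. GDF15, a secreted stress cytokine, also had a negative interaction. It stood at 59.05, 56.3 and 53.1 FPKM with Dox plus inhibitor, 69.00, 73.6 and 79.8 with Dox, 80.6, 80.3 and 69.7 with inhibitor, and 57.5, 52.97 and 44.2 in vehicle, and rose with Dox against vehicle (0.52 ± 0.10, adjusted p = 0.0033, limma) but fell with Dox plus inhibitor against inhibitor (-0.44 ± 0.10, adjusted p = 0.011). HERPUD1, an endoplasmic reticulum protein of the degradation pathway, rose with inhibitor against vehicle (0.66 ± 0.07, 0.78 relative to the median, adjusted p = 3.7e-05) and fell with Dox plus inhibitor against inhibitor (-0.36 ± 0.07, adjusted p = 0.0069).

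The remaining synthetases and transporters were examined in the same way, and the shares of all tested genes given for the genes linked to ATF4 stand beside these counts. Of 13 other cytosolic synthetase and scaffold genes, 1 was lower with Dox against vehicle, 2 were higher with Dox plus inhibitor against inhibitor (1 higher and 1 lower with median-ratio scaling), 2 were lower with inhibitor against vehicle, and 1 was higher and 1 lower with Dox plus inhibitor against Dox. FARSB, a subunit of the phenylalanine enzyme, fell most with inhibitor against vehicle (-0.78 ± 0.06, -0.66 relative to the median, adjusted p = 2.1e-06, limma). Of 20 genes for mitochondrial synthetases and the subunits that amidate glutamyl-tRNA, 1 was higher with Dox against vehicle, namely CARS2 for cysteine (0.69 ± 0.08, adjusted p = 0.00021), and 3 were higher and 1 lower with Dox plus inhibitor against inhibitor (1 lower with median-ratio scaling). With inhibitor against vehicle 1 of these 20 was higher and 3 lower, and with Dox plus inhibitor against Dox 1 was higher and 2 lower (3 higher and 2 lower in both with median-ratio scaling). Of 15 tested among 25 other amino acid transporters, 5 were higher and 2 lower with Dox against vehicle, 5 higher with Dox plus inhibitor against inhibitor, 3 higher and 3 lower with inhibitor against vehicle, and 1 higher and 6 lower with Dox plus inhibitor against Dox. With median-ratio scaling the last 2 became 5 higher and 1 lower, and 3 higher and 4 lower. SLC6A15, a carrier of branched-chain amino acids and proline, rose with Dox against vehicle (1.02 ± 0.09, adjusted p = 2.5e-05), and SLC6A6, the taurine carrier, fell there (-0.40 ± 0.05, adjusted p = 0.00046).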

How the data were processed

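Poly(A) RNA of 12 HK-2 libraries was sequenced from a stranded TruSeq kit, per the labels' protocols. The authors deposited 1 table of FPKM for 26334 symbols, each value with at most 2 decimals. Salmon 1.9.0, Trim Galore 0.6.7 and 2 builds, hg38 and GRCh38.p13, are listed in the submitters' processing notes without roles. How strand was set, which annotation was used and how FPKM was formed per gene is not given in the sources used here. Depth is unknown, so no counting interval was computed.

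Columns were matched to samples by name, and 0 pairs of libraries were identical. Within groups Pearson r of log2(FPKM + 1) over all 26334 symbols, tested or not, was 0.992 to 0.997. FPKM was analysed as log2(FPKM + 1), without rescaling, where at least 3 libraries reached 1 FPKM, with limma 3.58.1 in R 4.3.3: a group-means model of all 12 libraries (8 residual degrees of freedom) moderated by empirical Bayes with an intensity trend. Values after ± are SD of FPKM over 3 libraries or SE of a log2 change. The script was tested on simulated data. The members and lists were chosen with earlier results of these data known. Values in every library are given for ATF4, ATF5, DDIT3, TRIB3, CHAC1, ASNS, the 8 called genes with the largest change in each comparison, and every member called in the interaction. From other lists, at most 3 called genes per comparison were named. SLC38A2, EPRS and the members given by group means were named after their values were seen.

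Replicate numbers come from the titles. The rule for pairing was that every same-numbered pair correlated over 0.1 in its deviations. Only Dox plus inhibitor and inhibitor met it (0.13 to 0.55), and the other comparisons did not (-0.07 to 0.20, 0.097 to 0.69 and -0.09 to 0.13 for Dox against vehicle, inhibitor against vehicle and Dox plus inhibitor against Dox). Inhibitor against vehicle fell short only by its lowest pair (0.097). Inhibitor 2 was no closer to Dox plus inhibitor 2 (0.13) than to Dox plus inhibitor 3 (0.15), so the rule does not show that the numbers mark pairs. Alternatives were median-ratio and quantile scaling, a pseudocount of 0.1, other filters, a replicate block, no intensity trend, only the groups compared, leaving out each library, and, added after seeing the data, removal of the trend over GC content and length with and without the block. Gene coordinates are from GENCODE release 29 (GRCh38), and promoters from RefSeq (GRCh38.p14).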

Additional observations from a re-analysis of the deposited data

Results flagged for a closer look

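The results here are those whose Dox change differed between cells with and without the inhibitor by the interaction test (limma, adjusted p under 0.05, log2 scale, Dox change with inhibitor minus Dox change without it), among the 39 tested members and the other lists. DDIT3 had an interaction of -0.54 ± 0.09 (adjusted p = 0.0059) and NUPR1 one of -0.83 ± 0.18 (adjusted p = 0.035) that ended in 11 alternative fits. TFE3, kept outside these lists as the check of induction, had one of -0.47 ± 0.10 (adjusted p = 0.023) that ended in 7 alternative fits.

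Outside the members, GDF15 rose with Dox without the inhibitor and fell with it, an interaction of -0.96 ± 0.14 (adjusted p = 0.0031). SLC6A15 changed by 0.27 with Dox plus inhibitor against inhibitor and by 1.02 with Dox against vehicle, an interaction of -0.75 ± 0.13 (adjusted p = 0.011). SLC38A7, a glutamine carrier of the lysosome, changed by 0.18 and 0.62 in these comparisons, an interaction of -0.44 ± 0.10 (adjusted p = 0.038) that ended in 12 alternative fits.

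The other 3 had positive interactions. SLC6A6 rose with Dox plus inhibitor against inhibitor (0.40) and fell with Dox against vehicle (-0.40), with an interaction of 0.80 ± 0.08 (adjusted p = 0.00032). TXNIP, an arrestin-family protein that restrains glucose uptake, had an interaction of 0.55 ± 0.11 (adjusted p = 0.018) that ended in 4 alternative fits. FARSB had one of 0.50 ± 0.08 (adjusted p = 0.0068).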

How the results depend on the processing

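The number of members called with Dox against vehicle was 14, and 24 with the replicate block, 25 with the GC and length trend removed and 27 with both. With Dox plus inhibitor against inhibitor it was 10, and 19 with the replicate block and 17 with the block and the GC and length trend removed. For the interaction it was 2, and 1 with quantile normalization, with no filter and with a mean FPKM of at least 5, 4 with the GC and length trend removed and 6 with both. Leaving out 1 library gave 11 to 18 members with Dox against vehicle, 4 to 13 with Dox plus inhibitor against inhibitor, 15 to 21 with inhibitor against vehicle, 15 to 21 with Dox plus inhibitor against Dox, and 1 to 2 for the interaction. Over all tested genes these ranges were 1427 to 2665, 1121 to 2920, 3683 to 5011, 3057 to 4478, and 186 to 420. The lowest member count with Dox plus inhibitor against inhibitor was without Dox plus inhibitor 3 (4), beside 5 without Dox plus inhibitor 2 and 6 without inhibitor 2.

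In all the alternatives in which they were tested, 11 of the 14 calls with Dox against vehicle were kept, 4 of 10 with Dox plus inhibitor against inhibitor (DDIT3, PYCR1, VLDLR and WARS), 13 of 20 with inhibitor against vehicle, 13 of 19 with Dox plus inhibitor against Dox, and that of DDIT3 in the interaction. Of the changes that had not passed, 13, 13, 7 and 8 passed without a change of sign in at least 1 alternative in these 4 comparisons, and 5 for the interaction. Member changes turned sign 116 times over 88 alternative fits of the 4 comparisons, and 2 of these had a call before or after, both of SLC38A2 with Dox plus inhibitor against inhibitor, which was not called (0.06) and became -0.19 with the GC and length trend removed, with or without the block; the cause was not tested. Over all genes the number called with Dox against vehicle was 2269, and 3741 with the block, 3293 with the GC and length trend removed, 3925 with both, 1492 without vehicle 2 and 1427 without Dox 3. With Dox plus inhibitor against inhibitor it was 2304, and 4548 with the block, 1099 with only the groups compared, 1121 without Dox plus inhibitor 3, 1245 without Dox plus inhibitor 2 and 1352 without inhibitor 2. For the interaction it was 357, and 666 with the block, 952 with the GC and length trend removed, 1210 with both, and 186 to 420 without 1 library, the lowest without Dox 2, then vehicle 2 (198), inhibitor 2 (204), Dox 3 (207), and Dox plus inhibitor 3 (214) and 2 (237). In the comparisons that did not meet the rule for pairing, the block gave 24, 23 and 23 members (Dox against vehicle, inhibitor against vehicle, Dox plus inhibitor against Dox) and 3 for the interaction. Over all tested genes it gave 3741, 6167 and 5239 in these comparisons, beside 2269, 4802 and 4063 without it. Of the 12 libraries, 4 were closest to their own number in every other group. Unknown depth limits what can be said of SLC6A9, CTH and NUPR1, which had the lowest FPKM.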

Other observations

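Enzymes of neighbouring amino acid routes that were not members also passed in part. For this list and the next, the shares of all tested genes were those given for the genes linked to ATF4. Of 14 tested among 15 genes for proline, glutamine, aspartate and arginine metabolism, 2 were higher and 4 lower with Dox against vehicle, 1 higher and 3 lower with Dox plus inhibitor against inhibitor, 5 higher and 3 lower with inhibitor against vehicle, and 2 higher and 2 lower with Dox plus inhibitor against Dox. With median-ratio scaling the first became 2 higher and 7 lower, the second 3 lower and the last 3 higher and 1 lower. ALDH4A1, which oxidises the proline breakdown product to glutamate, stood at 10.00, 10.1 and 9.72 FPKM with Dox plus inhibitor, 4.82, 5.20 and 4.54 with Dox, 14.5, 13.4 and 13.8 with inhibitor, and 8.33, 7.25 and 7.36 in vehicle. The inhibitor libraries were highest and the Dox libraries lowest, with no overlap between groups. ALDH4A1 fell with Dox against vehicle (-0.56 ± 0.07, adjusted p = 0.00016, limma) and rose with Dox plus inhibitor against Dox (0.90 ± 0.07, adjusted p = 2.3e-06). OAT, which links ornithine with proline and glutamate, rose with Dox against vehicle (0.41 ± 0.04, adjusted p = 5.4e-05), with means of 122 ± 0.984 FPKM with Dox and 91.1 ± 2.35 FPKM in vehicle (SD, n = 3 each).

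Of 19 tested among 21 other one-carbon and folate genes, 1 was higher and 3 lower with Dox against vehicle (3 lower under median-ratio scaling), 1 higher and 1 lower with Dox plus inhibitor against inhibitor, and 1 higher and 4 lower in each inhibitor comparison (5 higher and 3 lower without Dox, and 2 higher and 3 lower with Dox, under median-ratio scaling). MAT2A, which makes the methyl donor S-adenosylmethionine, fell with inhibitor against vehicle (-0.50 ± 0.04, -0.39 relative to the median of all genes, adjusted p = 4.4e-06, limma) and with Dox plus inhibitor against Dox (-0.50 ± 0.04, adjusted p = 5.1e-06). GLDC, which cleaves glycine, averaged 19.7 ± 1.17 FPKM with Dox and 26.4 ± 1.26 FPKM in vehicle (SD, n = 3 each) and fell there (-0.41 ± 0.06, adjusted p = 0.0012).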
